A study of Mus musculus with 13 samples.

Results

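Prostaglandins and leukotrienes are lipid mediators made from arachidonic acid, and the genes described here encode enzymes and receptors of both arms. The set lists 10 genes: Ptgs1, Ptgs2, Ptges, Ptgis and Hpgds for prostanoid synthesis, the prostaglandin E2 receptors Ptger2 and Ptger4, and Alox5, Alox5ap and Ltc4s for leukotriene synthesis. A gene was taken up where a probe set of the array carried exactly 1 of these symbols, and the probe set with the highest mean stood for it. This gave 9 measured genes out of 18818 on the array, each from 1 probe set. Ptgs1 was not analysed here.

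In this pathway a phospholipase A2 frees arachidonic acid from membranes. Cyclooxygenases (Ptgs1, Ptgs2) turn it into prostaglandin H2, from which separate synthases make prostaglandins E2 and D2, prostacyclin and thromboxane. In the other arm 5-lipoxygenase (Alox5), helped by its activating protein FLAP (Alox5ap), makes leukotriene A4, which becomes leukotriene B4 or, through Ltc4s, the cysteinyl leukotrienes. In adipose tissue, prostaglandin E2 is known to restrain fat breakdown in adipocytes through the receptor Ptger3, while macrophages and other leukocytes are the usual source of leukotrienes.

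RNA of epididymal white fat was measured in male mice of 6.5 weeks after 4 days of a high-fat diet, which all groups ate. The 4 groups were wild type mice given α-galactosylceramide (αGalCer), with 4 arrays, wild type mice given vehicle, with 3 arrays, CD1d knockout mice given αGalCer, with 3 arrays, and CD1d knockout mice given vehicle, with 3 arrays. αGalCer is a glycolipid that activates natural killer T (NKT) cells when CD1d presents it. It was injected into the peritoneum at 100 ng per g of body weight on days 0 and 2, with pyridine as the vehicle, and the fat was taken on day 4. The wild type mice were C57/BL6. The knockout strain was B6.129S6-Cd1d1/Cd1d2tm1spb/J, whose name lists Cd1d2 beside Cd1d1. The mutation acts in every tissue, and mice without CD1d lack NKT cells from birth. Whether each array stands for a separate mouse is not stated, and the p-values then cover only the spread from array to array, part of which may be technical.

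Expression is given as log2 values made with RMA, a method that corrects, normalises and summarises the probes of an array. Levels below are on this log2 scale, and a change is a difference of group means on it. Cd1d1, the targeted gene, lay at 2.64 to 4.03 in the 6 knockout arrays and at 9.08 to 10.86 in the 7 wild type arrays. The 7 measured adipocyte markers averaged between 10.69 and 12.56 in every array, with Adipoq, the fat cell hormone adiponectin, at 9.73 to 12.48. In WT vehicle replicate 3 the epididymis and testis markers averaged 5.22, against 3.90 to 4.31 in the other 12 arrays. Skeletal muscle markers averaged 9.27 and 7.52 in knockout vehicle replicates 1 and 2 and 9.55 in knockout αGalCer replicate 3, against 5.17 to 6.19 in the other 10 arrays. For the measured genes of the set and the pathway genes named by rule, calls lost without these 4 arrays are given beside the results they touch. Markers of ciliated and ductal epithelium averaged 5.85 to 7.54 in wild type and 5.27 to 8.17 in knockout arrays after vehicle. After αGalCer they averaged 4.69 to 4.87 and 4.76 to 4.91. No alternative addressed this difference, and its part in the results was not tested.

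After αGalCer in wild type fat, Alox5ap, Ptgs2, Ptger2 and Ptger4 rose and Ptges fell, while Ptgis, Hpgds, Alox5 and Ltc4s did not pass the test. Alox5ap had the largest change, 1.69 ± 0.17 (SE), or 3.23-fold. That is 5 of 9 genes called at an adjusted p under 0.05 in limma, 4 higher and 1 lower. Over all 18818 genes the same comparison called 41.9%, 19.8% higher and 22.0% lower, so calls were common across the whole array. Groups did not overlap for 3 of the 9 genes, against 46.7% of all genes. The median change of the 9 genes was 0.50, against -0.02 for all genes. This median is the value of Hpgds, and the median was 0.16 without wild type vehicle replicate 1, and 0.85, 0.20 and 0.29 without wild type αGalCer replicate 1, 2 or 3. The count was 3 without wild type vehicle replicate 1 and 7 without wild type αGalCer replicate 1. In these bulk samples, more cells of a type and more RNA per cell cannot be told apart.

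**Figure D1:**
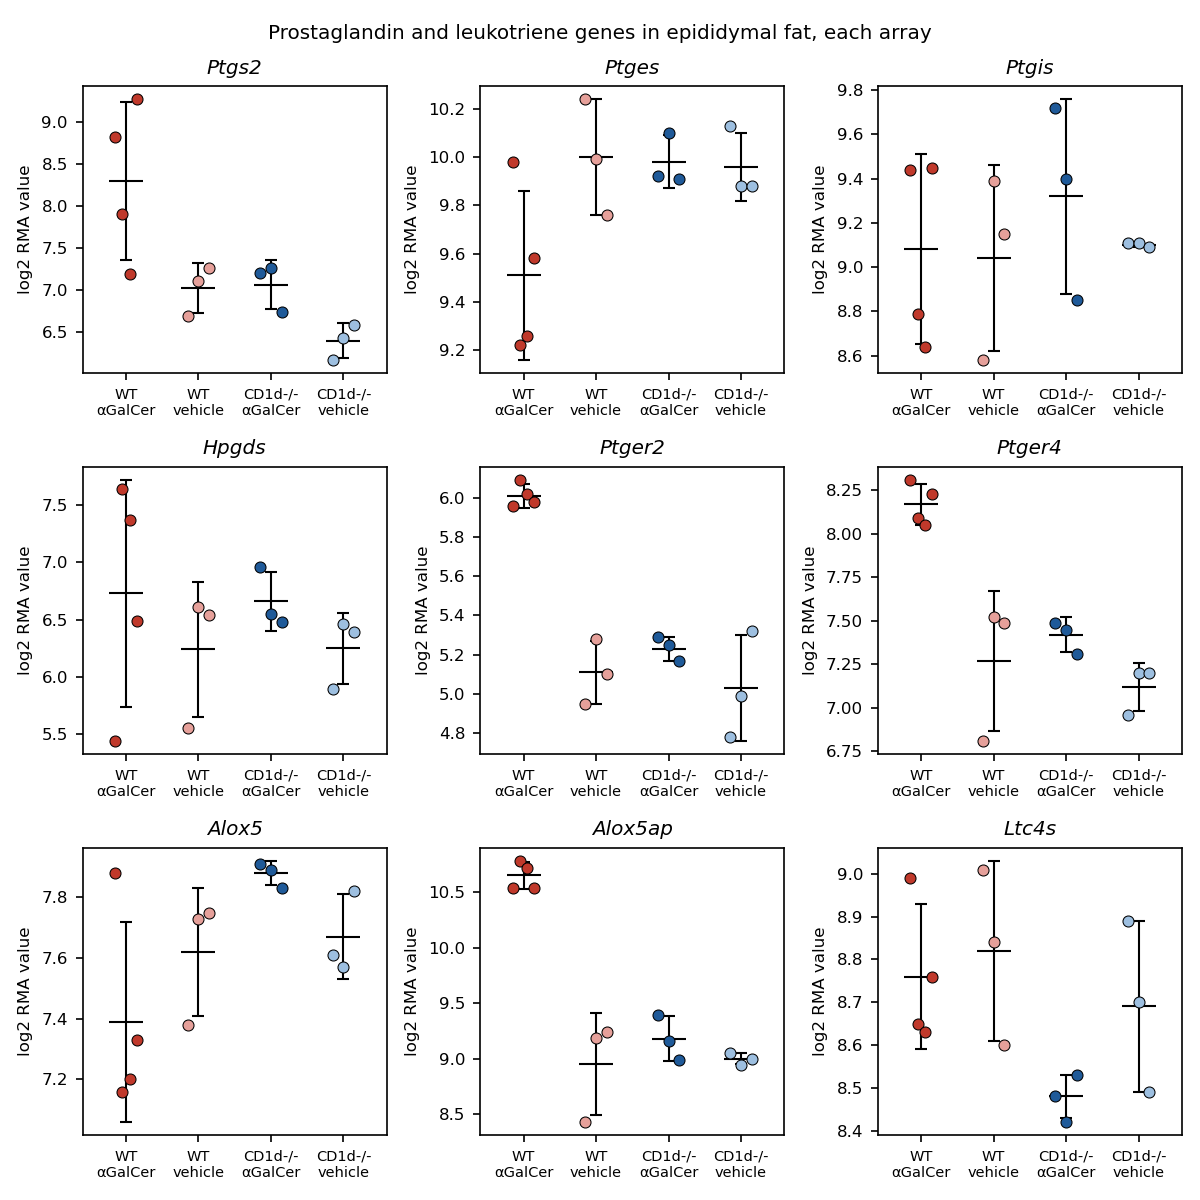
Each panel plots 1 gene as log2 RMA values, with a point per array for 4 arrays of wild type fat after αGalCer and 3 of each other group, and a bar with whiskers for the group mean and SD. Ptger2, Ptger4 and Alox5ap in wild type fat after αGalCer lie above every other array, while Ptgs2 and Hpgds in that group spread over more than 2 units, from 7.19 to 9.28 and from 5.44 to 7.64.

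Ptgs2, the inducible cyclooxygenase-2, had levels of 8.83, 7.91, 7.19 and 9.28 in wild type fat after αGalCer, against 6.68, 7.11 and 7.26 after vehicle. Replicates 1 and 4 of the αGalCer group were the high ones, and replicate 3 lay inside the vehicle range, so the groups overlapped. The rise was 1.28 ± 0.38 on the log2 scale, or 2.44-fold with a 95% interval of 1.37 to 4.34 (limma, adjusted p = 0.0163). The adjusted p was 0.0689 without wild type vehicle replicate 1, 0.0522 without the 4 arrays named above and 0.0507 when only the wild type arrays were fitted.

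Ptges encodes the microsomal prostaglandin E synthase that works with cyclooxygenase-2. Its levels were 9.98, 9.22, 9.26 and 9.58 in wild type fat after αGalCer and 10.24, 9.99 and 9.76 after vehicle. Replicate 1 of the αGalCer group lay above the lowest vehicle array, so these groups overlapped too. The change was -0.49 ± 0.17 (adjusted p = 0.0344). That call rests on few arrays: leaving out wild type vehicle replicate 1 or 2, or αGalCer replicate 2, 3 or 4, gave adjusted p between 0.0512 and 0.151.

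The other synthases were not called. Ptgis, which makes prostacyclin, lay at 9.44, 8.79, 8.64 and 9.45 after αGalCer and at 8.58, 9.39 and 9.15 after vehicle in wild type fat. The arrays were interleaved, and the change was 0.04 with a 95% interval of -0.50 to 0.59 (adjusted p = 0.917). Hpgds, the prostaglandin D synthase of blood-derived cells such as mast cells and macrophages, lay at 5.44, 7.64, 7.37 and 6.49 after αGalCer and at 5.55, 6.61 and 6.54 after vehicle. Its αGalCer arrays held the highest and the lowest value of all 13. The change was 0.50, with an interval of -0.45 to 1.45 (adjusted p = 0.413), and it hung on single arrays. It was 0.93 (adjusted p = 0.0396) without wild type αGalCer replicate 1, 0.20 (adjusted p = 0.77) without αGalCer replicate 2, 0.29 (adjusted p = 0.682) without αGalCer replicate 3, and 0.16 (adjusted p = 0.835) without vehicle replicate 1.

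Both measured prostaglandin E2 receptors of the set, which couple to the stimulatory G protein and raise cyclic AMP, rose. Ptger2 lay at 5.96, 6.09, 6.02 and 5.98 in wild type fat after αGalCer, against 4.95, 5.28 and 5.10 after vehicle. The 4 αGalCer arrays lay close together and above every vehicle array. The rise was 0.90 ± 0.13 (adjusted p = 6.36e-05), from a low level: the mean over all arrays stood at the 37.4th percentile of genes.

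Ptger4 lay at 8.31, 8.09, 8.05 and 8.23 in wild type fat after αGalCer, against 6.81, 7.52 and 7.49 after vehicle. The groups did not overlap, and wild type vehicle replicate 1 was the lowest of all 13 arrays. The rise was 0.90 ± 0.15, or 1.86-fold (adjusted p = 0.000382). Both receptor calls held in all 19 alternatives run, with changes of 0.82 to 0.99 for Ptger2 and of 0.67 to 1.02 for Ptger4.

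Of the 3 leukotriene genes of the set, Alox5ap rose, and Alox5 and Ltc4s did not pass the test. Alox5ap, the membrane protein that presents arachidonic acid to 5-lipoxygenase, lay at 10.54, 10.78, 10.72 and 10.54 in wild type fat after αGalCer, against 8.43, 9.19 and 9.24 after vehicle. The lowest αGalCer array was above the highest vehicle array by more than 1 unit. The adjusted p was 3.66e-06, and the 95% interval of the fold was 2.51 to 4.17.

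Alox5 itself had levels of 7.88, 7.16, 7.20 and 7.33 after αGalCer and 7.38, 7.73 and 7.75 after vehicle in wild type fat. In 3 of the 4 αGalCer arrays it lay below every vehicle array, and replicate 1 lay above them. The change was -0.23, with an interval of -0.58 to 0.12 (adjusted p = 0.298). Without wild type αGalCer replicate 1 it was -0.39 (adjusted p = 0.0167). Ltc4s, which joins leukotriene A4 to glutathione, lay at 8.99, 8.65, 8.63 and 8.76 after αGalCer and at 9.01, 8.84 and 8.60 after vehicle. Its groups covered the same range, and the change was -0.06 with an interval of -0.33 to 0.21 (adjusted p = 0.757).

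**Figure D2:**
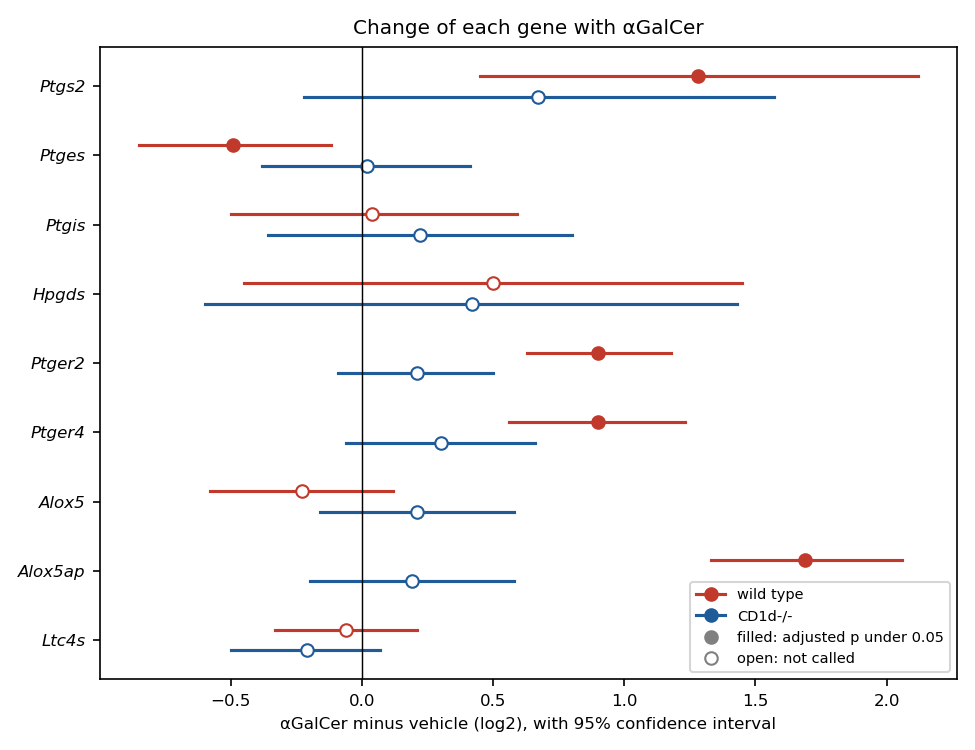
Change with αGalCer (log2, horizontal axis) of each gene in wild type fat, in red, and in CD1d knockout fat, in blue, with 95% confidence intervals; filled points passed the adjusted p of 0.05. The red points of Alox5ap, Ptgs2, Ptger2 and Ptger4 lie right of 0 and that of Ptges left of it, and all 9 blue intervals cross 0.

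In CD1d knockout fat αGalCer led to no call among the 9 genes, where limma called 0 of 18818 genes (0.0%). At an unadjusted p under 0.05 it counted 0 of the 9 genes and 1281 genes overall. Ptgs2 lay at 7.20, 7.26 and 6.73 in knockout fat after αGalCer, against 6.16, 6.42 and 6.58 after vehicle. The change was 0.67, with an interval of -0.22 to 1.57 (adjusted p = 0.77). Ptger4 lay at 7.49, 7.45 and 7.31 after αGalCer and at 6.96, 7.20 and 7.20 after vehicle, with a change of 0.30 (interval -0.06 to 0.66). In both, every αGalCer array was above every vehicle array. The same held for Hpgds (6.96, 6.55 and 6.48 after αGalCer, against 5.89, 6.46 and 6.39) and for Alox5 (7.91, 7.89 and 7.83, against 7.61, 7.57 and 7.82). So 4 of 9 genes had groups that did not overlap, all higher after αGalCer, where 13.8% of all genes had groups that did not overlap. None of these changes passed the test.

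The remaining 5 genes overlapped in knockout fat. Alox5ap lay at 9.39, 9.16 and 8.99 after αGalCer and at 8.94 to 9.05 in the 3 arrays after vehicle, a change of 0.19 (interval -0.20 to 0.58). Ptger2 lay at 5.29, 5.25 and 5.17 after αGalCer and at 4.78, 4.99 and 5.32 after vehicle. Ptges lay at 9.92, 10.10 and 9.91 after αGalCer and at 10.13, 9.88 and 9.88 after vehicle. These ranges lie inside or across each other. Ptgis had 9.72, 9.40 and 8.85 after αGalCer, against 9.11, 9.11 and 9.09 after vehicle, where its 3 arrays were nearly equal. Ltc4s had 8.48, 8.42 and 8.53 after αGalCer, against 8.89, 8.70 and 8.49 after vehicle.

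The difference of the αGalCer effect, knockout minus wild type, was tested as an interaction in the same model. It was called for Alox5ap, at -1.51 ± 0.25 (adjusted p = 0.000527), and for Ptger2, at -0.70 ± 0.18 (adjusted p = 0.0116). That is 2 of 9 genes, against 28.2% of all genes. Ptger4 had a difference of -0.60 with an interval of -1.09 to -0.11 (adjusted p = 0.0691). For Ptgs2 it was -0.61 with an interval of -1.83 to 0.61 (adjusted p = 0.505), so its effect was not shown to differ between genotypes. Ptges had a difference of 0.50 (adjusted p = 0.168) and Alox5 of 0.44 (adjusted p = 0.211). Array weights called these last 2 genes and Ptger4 as well, 5 genes in all, and leaving out wild type αGalCer replicate 1 called Ptges and Alox5, 4 in all.

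After vehicle, knockout and wild type fat differed in none of the 9 genes (limma, 0 called and 0 at an unadjusted p under 0.05), where 0.112% of all genes were called, 0.0903% higher and 0.0213% lower in knockout. Changes ran from -0.63 for Ptgs2 (interval -1.52 to 0.26) to 0.07 for Ptgis (interval -0.52 to 0.65). Ptgs2 was the 1 gene of the 9 whose groups did not overlap here, with 6.16, 6.42 and 6.58 in knockout fat and 6.68, 7.11 and 7.26 in wild type fat. Groups did not overlap for 11.2% of all genes.

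After αGalCer, 6 of the 9 genes were called between knockout and wild type fat, 4 lower and 2 higher in knockout. Over all genes 41.1% were called, 19.2% lower and 21.9% higher. These values share their wild type αGalCer arrays with the first comparison. Alox5ap was lower in knockout by 2.76-fold, at -1.46 ± 0.17 (adjusted p = 1.26e-05), Ptger2 by 1.71-fold (adjusted p = 0.00022), Ptger4 by 1.69-fold (adjusted p = 0.00141) and Ptgs2 by 2.36-fold (adjusted p = 0.0196). Ptges was higher in knockout at 0.47 ± 0.17 (adjusted p = 0.0412) and Alox5 at 0.48 ± 0.16 (adjusted p = 0.0278). Groups did not overlap for Alox5ap, Ptger2, Ptger4 and Ltc4s, 4 of 9 genes, against 50.4% of all genes. Without knockout αGalCer replicate 3, or without the 4 arrays named above, 3 genes were called, and the calls of Ptgs2, Ptges and Alox5 were lost. Of 19 alternatives, 10 lost the call of Ptges, 9 that of Alox5 and 4 that of Ptgs2. Leaving out any 1 knockout αGalCer array, or wild type αGalCer replicate 2, 3 or 4, lost the calls of both Ptges and Alox5.

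Start regions of the called genes are shown because Ptgs2, Ptger2 and Ptger4 moved together in wild type fat and Ptges moved the other way. They run from 250 bases before to 50 bases after 1 annotated start per gene, 5′ to 3′ on the gene's strand, as RefSeq gives them on GRCm38.p6. For Ptges this start lies 27723 bases inside the outer end of the annotated gene and for Hpgds 251 bases inside it, while for the other 5 genes it is that end. Such windows were at hand for 7 of the 9 measured genes, but not for Alox5ap, which was called, or Ptgis. Capitals mark matches, on either strand, to 6 motifs, of which 5 are spelled out after the sequences and the NF-kB motif is given by name.
Ptgs2, chr1:150099781-150100080, plus strand: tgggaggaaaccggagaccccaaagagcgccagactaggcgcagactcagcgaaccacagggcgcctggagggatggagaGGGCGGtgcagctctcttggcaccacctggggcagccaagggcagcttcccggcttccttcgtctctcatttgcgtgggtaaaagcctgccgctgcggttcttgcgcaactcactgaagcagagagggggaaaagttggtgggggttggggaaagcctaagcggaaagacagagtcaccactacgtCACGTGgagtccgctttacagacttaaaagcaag
Ptger2, chr14:44987861-44988160, plus strand: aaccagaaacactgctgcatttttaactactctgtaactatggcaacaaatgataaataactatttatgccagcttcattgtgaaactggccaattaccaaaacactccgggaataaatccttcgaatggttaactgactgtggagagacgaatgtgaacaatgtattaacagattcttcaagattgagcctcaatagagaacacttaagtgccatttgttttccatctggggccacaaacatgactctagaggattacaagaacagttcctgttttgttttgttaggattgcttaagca
Ptger4, chr15:5244138-5244437, minus strand: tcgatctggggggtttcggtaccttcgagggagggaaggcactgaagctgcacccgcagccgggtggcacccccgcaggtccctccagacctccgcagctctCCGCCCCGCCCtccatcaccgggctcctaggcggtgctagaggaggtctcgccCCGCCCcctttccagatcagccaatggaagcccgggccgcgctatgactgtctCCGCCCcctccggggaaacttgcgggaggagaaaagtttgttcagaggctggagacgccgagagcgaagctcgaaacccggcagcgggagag
Ptges, chr2:30903248-30903547, minus strand: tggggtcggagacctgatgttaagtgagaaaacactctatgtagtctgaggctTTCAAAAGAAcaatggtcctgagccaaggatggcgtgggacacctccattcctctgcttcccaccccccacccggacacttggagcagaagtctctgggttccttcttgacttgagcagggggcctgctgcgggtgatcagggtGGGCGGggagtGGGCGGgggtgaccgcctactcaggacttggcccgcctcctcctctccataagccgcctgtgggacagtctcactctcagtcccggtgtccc

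The window of Ptgs2 held 1 GC box, at -170 to -165 from the start, and 1 E-box, at 17 to 22. Ptger4 held 4 GC boxes, of which the first 2 share 1 base, and Ptges held 2. Ptger2 matched none of the 6 motifs. The STAT6-type motif was found in Ptges alone among the 7 windows, at -197 to -188 from the start inside the gene that its window is built on. Shares are of all 32851 windows in the same table. The STAT6-type motif, which is TTC, any 4 bases, then GAA, was held by 6.95% of them, and the STAT motif with 3 bases in the middle by 8.3%. The GC box, spelled GGGCGG, was held by 35.7% of the windows. The E-box, which bHLH factors bind and which was searched as CACGTG, was held by 7.15%. The TATA box, searched as TATAAA, was held by 13.6% and the NF-kB motif by 8.46%. The windows of Hpgds and Ltc4s matched none of the 6, and that of Alox5 held 1 GC box. No motif of this search was thus held by all 3 genes that rose and have a window here. Ptgs2 and Ptger4 both held the GC box, and Ptger2 matched none.

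The rest of the pathway held genes that rose and genes that fell. Of 55 other listed genes of arachidonic acid release, prostanoids and leukotrienes 47 were measured, and in wild type fat after αGalCer 16 rose, 16 fell and 15 did not pass the test, where 19.8% of all genes rose and 22.0% fell. Their median change was -0.04, with a range of -3.00 to 3.11. The largest rise was that of Tbxas1, thromboxane synthase, and the largest fall that of Ptger3, the prostaglandin E2 receptor of adipocytes. In knockout fat limma called 0 of the 47, with 6 (12.8%) at an unadjusted p under 0.05, against 6.81% of all genes. The difference of the αGalCer effect, knockout minus wild type, was called as positive for 12 and as negative for 14 of the 47, where 28.2% of all genes were called in either direction. Single-gene alternatives were run for the pathway genes named by the rule given below. They were not run for Pla2g6, Slco2a1, Abcc4, Ptgr1, Ptgr2, Alox15 and Cmklr1, whose differences were also called. Among the genes checked, calls of the difference between genotypes were lost without the 4 arrays named above for Ptges3 (adjusted p = 0.1), Ptgfr (0.23), Ptgir (0.216), Hpgd (0.102), Lta4h (0.071) and Dpep2 (0.106).

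Among 13 measured phospholipases A2, 4 rose and 4 fell in wild type fat. Pla2g4a, the cytosolic enzyme that releases arachidonic acid, lay at 9.06, 9.52, 9.20 and 9.28 after αGalCer, against 6.79, 7.53 and 7.50 after vehicle. The groups were more than 1.5 units apart, and the rise was 3.97-fold (1.99 ± 0.18, adjusted p = 1.7e-06). Pla2g7, which degrades platelet-activating factor, rose by 2.07 ± 0.20, and the lysosomal Pla2g15 by 1.43 ± 0.14. The secreted Pla2g12a (-1.37 ± 0.13) and Plaat3, the main phospholipase of adipocytes (-1.10 ± 0.09), fell. In knockout fat Pla2g4a had a value of 0.49 ± 0.19 (adjusted p = 0.72).

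Other prostanoid synthases numbered 6, of which 2 rose and 3 fell. Tbxas1 lay at 10.62, 10.68, 10.55 and 10.56 in wild type fat after αGalCer, against 6.80, 7.96 and 7.71 after vehicle. All αGalCer arrays were far above all vehicle arrays, an 8.65-fold rise (3.11 ± 0.21, adjusted p = 2.19e-07). In knockout fat it lay at 8.13, 7.82 and 7.73 after αGalCer, against 7.47, 7.44 and 7.64 after vehicle. Platelets are a known source of thromboxane, and the 5 measured platelet markers averaged 6.50 to 6.67 in wild type arrays after αGalCer, against 6.35 to 6.68 after vehicle. The part of platelets, or of any other cells, in the rise of Tbxas1 was not tested. Ptges3, the cytosolic prostaglandin E synthase that is also the chaperone p23, rose by 0.31 ± 0.08, and Ptges2 had a value of -0.23 ± 0.19 (adjusted p = 0.374). Prxl2b, a prostaglandin F synthase, fell by 1.24 (SE 0.14).

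Ptgds, the lipocalin-type prostaglandin D synthase, lay at 5.53, 5.16, 5.08 and 5.37 in wild type fat after αGalCer, against 7.40, 5.91 and 9.13 after vehicle. In knockout fat it lay at 5.81, 5.50 and 5.67 after αGalCer, against 8.56, 6.59 and 5.90 after vehicle. The vehicle arrays were higher and more variable in both genotypes, and the change in wild type was -2.19 ± 0.66 (adjusted p = 0.0167). Without wild type vehicle replicate 3 the change was -1.37 (adjusted p = 0.0915). The 9 measured markers of ciliated and ductal epithelium moved with it: they averaged 4.82, 4.87, 4.69 and 4.87 in wild type arrays after αGalCer, against 7.34, 5.85 and 7.54 after vehicle. In knockout arrays they averaged 4.76, 4.91 and 4.87 after αGalCer, against 8.17, 6.31 and 5.27 after vehicle. Their part in the result was not tested. Alox12, a lipoxygenase, had a similar course, with 4.36 to 4.93 after αGalCer and 5.64 to 6.91 after vehicle in wild type fat (-1.81 ± 0.48, adjusted p = 0.00849).

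Of 5 further prostanoid receptors 1 rose and 1 fell. Ptger3 lay at 6.27, 5.23, 6.83 and 6.71 in wild type fat after αGalCer, against 9.29, 9.38 and 9.13 after vehicle. Every αGalCer array was lower by more than 2 units, and the change was -3.00 ± 0.30 (adjusted p = 3.38e-06). In knockout fat Ptger3 lay at 8.99, 9.21 and 9.36 after αGalCer, against 8.65, 9.12 and 8.94 after vehicle, so the difference between genotypes was 3.29 ± 0.43 (adjusted p = 0.000116). The 3 measured prostaglandin E2 receptors therefore split, with Ptger2 and Ptger4 higher and Ptger3 lower. Ptgir, the prostacyclin receptor, rose by 1.11 ± 0.18 (adjusted p = 0.00028). The receptors Ptgfr (-0.46 ± 0.18, adjusted p = 0.0524), Ptgdr (0.25 ± 0.09, adjusted p = 0.052) and Tbxa2r (-0.08 ± 0.08, adjusted p = 0.513) were not called.

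All 5 measured genes of prostaglandin transport and breakdown were called in wild type fat, 3 higher and 2 lower, where 41.9% of all genes were called. Hpgd, which inactivates prostaglandins, lay at 8.44, 8.11, 8.15 and 7.55 after αGalCer, against 9.42, 9.24 and 9.73 after vehicle. No array overlapped, and the change was -1.40 ± 0.18 (adjusted p = 2.54e-05).

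In the leukotriene arm, 3 of 7 further enzymes rose and 3 fell. Lta4h, which makes leukotriene B4, rose by 0.40 ± 0.09 (adjusted p = 0.00177). Cyp4f18, which oxidises leukotriene B4, rose by 2.67 ± 0.23 (adjusted p = 1.32e-06). Of the dipeptidases that trim leukotriene D4, Dpep2 rose by 1.25 ± 0.16 and Dpep1 fell by 1.23 (SE 0.15). Mgst3, a membrane glutathione transferase that can also make leukotriene C4, fell by 1.59 (SE 0.17). The steps after leukotriene A4 thus included enzymes that rose, fell and, for Ltc4s, did not pass the test.

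Of 4 measured leukotriene receptors 3 rose. Ltb4r1, the high-affinity leukotriene B4 receptor of leukocytes, lay at 7.83, 7.30, 6.90 and 7.84 in wild type fat after αGalCer, against 4.76, 5.25 and 5.09 after vehicle. Its rise was 5.42-fold (2.44 ± 0.21, adjusted p = 1.11e-06). Cysltr2, a cysteinyl leukotriene receptor, lay at 6.41, 5.96, 6.39 and 6.25 after αGalCer, against 3.31, 3.64 and 3.87 after vehicle, and rose 6.25-fold. The other cysteinyl leukotriene receptor, Cysltr1, rose by 1.85 ± 0.34 (adjusted p = 0.000561). No array overlapped in these 3 receptors in wild type fat, where groups did not overlap for 46.7% of all genes. None of them was called in knockout fat, where limma called 0 of 18818 genes. The difference between genotypes was called for Ltb4r1 and Cysltr2, but not for Cysltr1 (-1.29 ± 0.49, adjusted p = 0.0699). In knockout fat Cysltr1 lay at 7.84 to 7.95 after αGalCer, above all vehicle arrays, at 6.67 to 7.79.

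**Figure D3:**
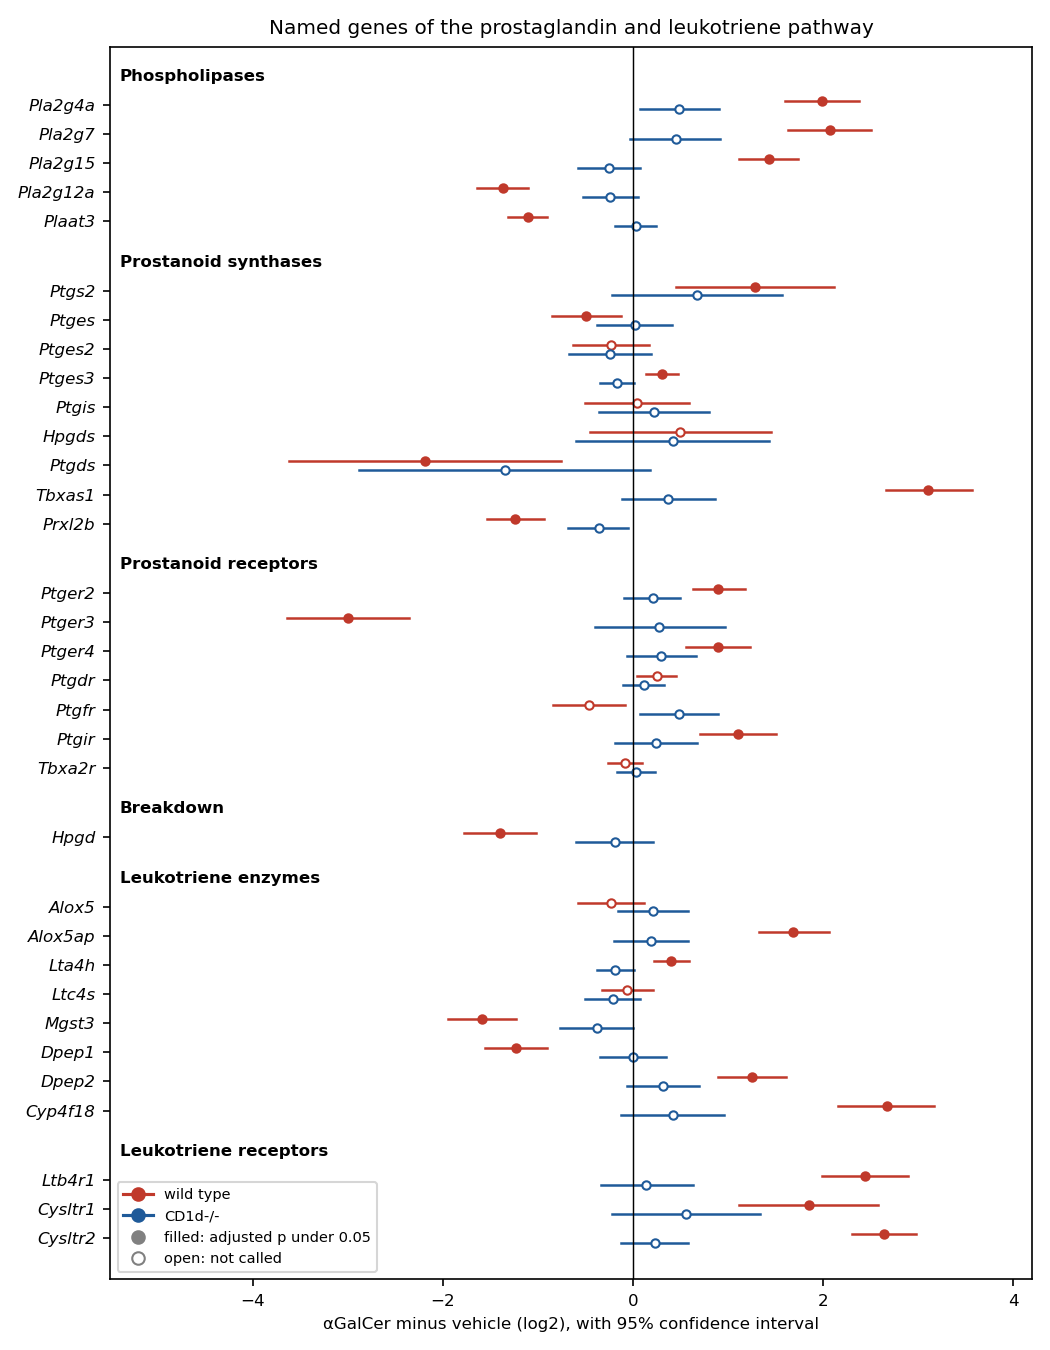
Change with αGalCer (log2, horizontal axis) of the named genes of the pathway in wild type fat, in red, and in CD1d knockout fat, in blue, ordered by role, with 95% confidence intervals; filled points passed the adjusted p of 0.05. Red points run from -3.00 for Ptger3 to 3.11 for Tbxas1, and no blue point is filled.

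A single pathway gene outside the set differed between genotypes after vehicle. Pla2g2d, a secreted phospholipase A2 of dendritic cells and macrophages, lay at 8.63, 8.07 and 8.31 in knockout fat and at 7.41, 7.18 and 7.26 in wild type fat. It was 2.07-fold higher in knockout (1.05 ± 0.14, adjusted p = 0.011). After αGalCer in wild type it lay at 6.40, 6.54, 6.70 and 6.64, a fall of 0.72 (SE 0.13, adjusted p = 0.00076). It was named here after its values were seen.

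Markers of macrophages, neutrophils and T cells rose with the genes that rose, and those of other blood-derived cells were mixed. Of 8 macrophage markers 7 rose in wild type fat, and their mean lay at 10.44 to 10.61 after αGalCer, against 8.52 to 9.22 after vehicle. In knockout fat it lay at 9.10 to 9.59 after αGalCer, against 8.97 to 9.03 after vehicle. All 7 measured neutrophil markers rose in wild type, with means of 6.32 to 8.07 after αGalCer, against 4.64 to 5.29 after vehicle, and all 6 measured T cell markers rose as well. Of 9 mast cell markers 1 rose and 2 fell, with means of 5.17 to 5.55 after αGalCer, against 5.33 to 5.50 after vehicle. Of 6 eosinophil markers 2 rose and 1 fell, and of 5 measured B cell markers 1 rose. All 7 adipocyte and all 8 endothelial markers fell, and the adipocyte markers averaged 10.69 to 11.43 after αGalCer, against 12.34 to 12.46 after vehicle. Of 8 fibroblast and progenitor markers 7 fell, and of 8 mesothelium markers 3 fell. Over all genes, 19.8% rose and 22.0% fell in this comparison. No marker was at 0 on this scale, which has no detection call, and the part of cell numbers in any gene's change was not tested.

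Within the wild type αGalCer group the arrays stood in the same order for Ptgs2, Ptgis and the mean of the neutrophil markers. This match was picked after the values were seen, and how often 4 arrays would match by chance was not tested. Ptgs2 was highest in replicate 4, then 1, 2 and 3, and the neutrophil markers averaged 8.07, 7.67, 6.80 and 6.32 in these arrays. S100a8, which encodes a calcium-binding protein of neutrophils, had 7.43, 7.32, 6.20 and 5.23 in that order of arrays. Retnlg of the same list broke the order, at 7.44, 7.11, 6.35 and 6.60. Hdc, the 1 of 9 mast cell markers that rose, kept it, at 8.15, 8.07, 6.92 and 6.46, and so did the receptor Ltb4r1. The other mast cell markers broke it, Cpa3 for example at 6.77, 6.53, 6.22 and 7.13. Which cells these transcripts came from was not tested. These genes were named after their values were seen. Ptgis was in this order too, at 9.45, 9.44, 8.79 and 8.64. Hpgds was not, and was lowest in replicate 1, at 5.44, and highest in replicate 2, at 7.64. The mean of the macrophage markers lay between 10.44 and 10.61 in the group, but single markers varied more and in unlike ways. Adgre1 had 10.09, 10.86, 10.83 and 10.24 in replicates 1 to 4, the order of Hpgds. Cd14 had 8.07, 7.65, 7.08 and 8.03. Both were named after their values were seen. The SD within groups was 0.58 for Ptgs2 and 0.67 for Hpgds, at the 97.8th and 98.5th percentile of all genes. For Ptger2 it was 0.16, at the 49.9th percentile, and for Alox5ap 0.25, at the 80.7th.

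**Figure D4:**
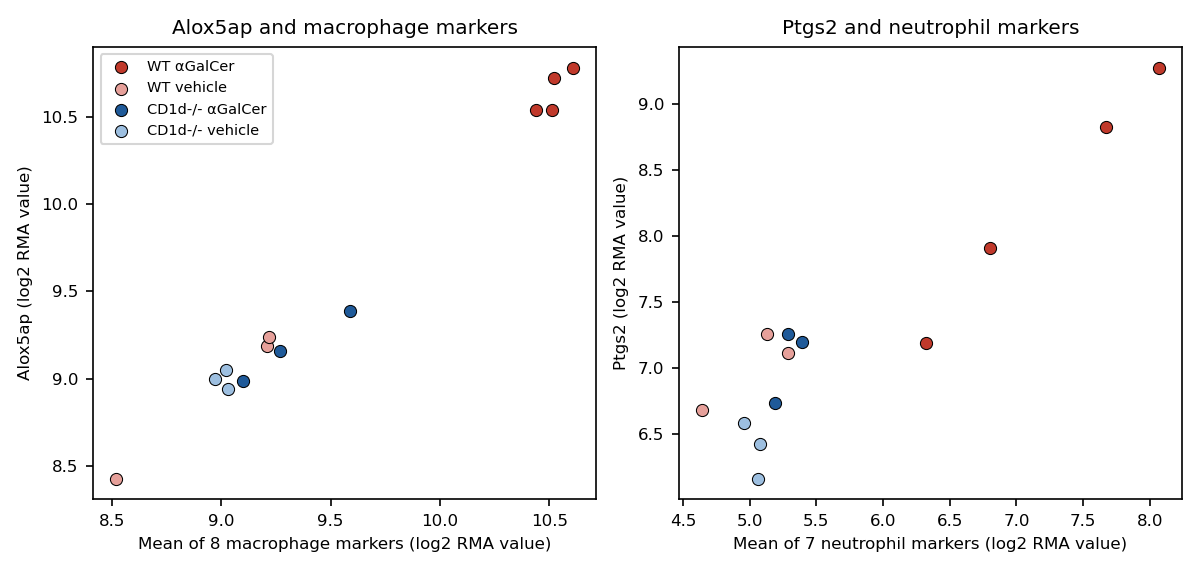
Log2 RMA values of Alox5ap against the mean of 8 macrophage markers (left) and of Ptgs2 against the mean of 7 neutrophil markers (right), with a point per array and colours for the 4 groups. The wild type αGalCer arrays form a tight cloud for Alox5ap, at 10.54 to 10.78, and are strung out for Ptgs2, at 7.19 to 9.28.

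The genes whose levels followed each member most closely over the 13 arrays were ranked by Pearson's r, in which the 13 arrays share the 4 groups. For Alox5ap these were the phospholipase Pla2g7 (r = 0.996), the Toll-like receptor Tlr6 (0.995) and Lpxn, a leukocyte adaptor (0.994). For Ptger2 they were the adhesion receptor Cd44, the interferon-induced GTPase Gbp4 and the Notch effector Rbpj (0.985 to 0.986). For Ptger4 they were Tnip2, Csf2rb2 and the scavenger receptor Msr1 (0.976 to 0.982), and for Ptgs2 the neutrophil chemokine Cxcl2 (0.971), Ifit1bl2 (0.968) and Morrbid (0.963), a noncoding RNA of short-lived myeloid cells. Ptges was most like Ppard (0.964), Ksr1 (0.955) and Syde1 (0.941). For the genes that were not called in wild type the values were lower: 0.823 to 0.846 for Ptgis, led by Slc44a2, 0.909 to 0.917 for Hpgds, led by Hacd4, 0.904 to 0.926 for Alox5, led by Btg2, and 0.920 to 0.932 for Ltc4s, led by Micos10. These r include the differences between groups, and 41.9% of all genes were called in wild type. The gap between called and uncalled genes is therefore tied to the calls and is no separate result.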

How the data were processed

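RNA of 13 samples was measured on Affymetrix gene arrays from 100 ng of total RNA with an RNA integrity number above 8.0, per the labels' protocols. The authors deposited log2 expression values per probe set, made with RMA per the submitters' processing notes. A software version is not given in the sources used here, nor is a genome build. Array medians ran from 5.68 to 5.83. Precision is limited by how many arrays each group has.

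Of 35556 probe sets, 21218 had 1 symbol in the platform annotation, updated through Entrez identifiers with RefSeq (GRCm38.p6), which gave 18818 genes, the highest-mean probe set for each. All 13 arrays entered 1 limma fit (version 3.58.1, run in R 4.3.3) that estimated 1 mean for each group, with 9 residual degrees of freedom and eBayes with an intensity trend. P-values are two-sided, with Benjamini-Hochberg adjustment across the 18818 genes; ± after a change is its SE. The fit was tested on simulated data. Alternatives changed the variance model, array weights, normalization, gene filter, probe set summary, samples fitted, fold minimum and a replicate block, or left out arrays.

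Members, lists and tests were chosen with earlier results of these data known. Named were all members, pathway genes called in wild type with a change of at least 1, and the receptors and enzymes next to a member. Likeness was ranked by r, with 3 genes per member and unnamed predicted genes skipped.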

Additional observations from a re-analysis of the deposited data

Results flagged for a closer look

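The effect of αGalCer differed between genotypes, by the interaction test, for Alox5ap (knockout minus wild type -1.51) and Ptger2 (-0.70) of the set. Among the named genes of the rest of the pathway the differences on the negative side were those of Tbxas1 (-2.74), Cysltr2 (-2.42), Ltb4r1 (-2.30), Cyp4f18 (-2.25), Pla2g15 (-1.68), Pla2g7 (-1.62), Pla2g4a (-1.50), Dpep2 (-0.93), Ptgir (-0.87), Lta4h (-0.59) and Ptges3 (-0.48). On the positive side they were those of Ptger3 (3.29), Dpep1 (1.23), Hpgd (1.21), Mgst3 (1.21), Plaat3 (1.13), Pla2g12a (1.13), Ptgfr (0.95) and Prxl2b (0.87).

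Without the 4 arrays with muscle or epididymis transcripts, the calls of Ptgir, Ptges3, Ptgfr, Hpgd, Lta4h and Dpep2 were lost, with adjusted p between 0.071 and 0.23. Ptgir was also lost in 5 settings that left out 1 array, and Ptges3 where 1.5-fold was also required. For Ptgfr the changes were -0.46 ± 0.18 in wild type and 0.49 ± 0.19 in knockout, neither of them called. In wild type it was called in 8 of 19 alternatives, with adjusted p of 0.0048 to 0.0496. Cyp4f18 had 1 of 4 wild type αGalCer arrays apart from the others, replicate 4 at 8.82 against 9.16 to 9.21, a gap of 0.891 of the group's range. Chance alone sets about 1 in 20 such groups apart.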

How the results depend on the processing

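Counts of called members changed most. In wild type after αGalCer, 5 members were called, against 3 when only the wild type arrays were fitted and 3 to 7 when 1 array was left out. For the difference between genotypes 2 were called, against 5 with array weights and 2 to 4 with 1 array left out. For knockout against wild type after αGalCer 6 were called, against 3 without the 4 arrays with muscle or epididymis transcripts and 3 to 5 with 1 array left out. With the replicate number as a block, 5, 2 and 4 members were called in these comparisons, and 33 of the 47 other pathway genes in wild type; the wild type αGalCer replicate 4 has no partner in that fit. Whether the numbers pair the samples was not settled. Correlations of same-numbered deviations ran from -0.11 to 0.48, with 0.48 for replicates 1 and 2 of the vehicle groups. Differently numbered arrays were not compared. No alternative called a member in knockout after αGalCer or between genotypes after vehicle. Of 45 changes of members, 34 stayed on their side of the threshold in every alternative, 5 lost a call somewhere and 6 gained one, and no called change turned its sign; uncalled values changed sign 49 times, named pathway genes included. The causes were not tested. Depth is not defined for arrays, and signal over background was not used here.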
